A study of Mus musculus with 23 samples.

Results

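Transcripts of 10 glutathione S-transferase (GST) genes were described in the proximal small intestine of young mice fed galactose or glucose. The genes were chosen by name: Gsta1, Gsta2, Gsta3 and Gsta4 of the alpha class, Gstm1, Gstm2, Gstm3 and Gstm4 of the mu class, Gstp1 of the pi class and Gstt1 of the theta class. They are 10 of the 55416 genes counted. All 10 had enough counts to be tested. RNA-seq libraries were made from mucosal scrapings of 23 C57BL/6JRccHsd mice labelled female, each library from 1 mouse. From 21 days of age the mice ate pelleted food that held either 16% of its energy as galactose plus 16% as glucose (GAL42, n = 12) or 32% as glucose (GLU42, n = 11). The food was otherwise the same, and tissue was collected 3 weeks later, at 42 days of age. All mice were of 1 strain and carried no labelled genetic change, and no group ate a food without added sugar.

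GSTs are dimeric enzymes that join the tripeptide glutathione to electrophilic compounds, which makes those compounds more soluble and less reactive. The conjugates leave the cell through ABC transporters such as Abcc2 and are trimmed to mercapturates. In the small intestine the absorptive epithelium carries these enzymes and meets dietary electrophiles and lipid peroxidation products before they reach the liver. The classes differ in substrates: alpha enzymes also reduce organic hydroperoxides, mu and pi enzymes conjugate many xenobiotics, and theta enzymes act on small halogenated compounds. Transcription of many GST genes can be raised by the factor NRF2 through antioxidant response elements, by the nuclear receptors CAR and PXR and by the aryl hydrocarbon receptor.

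Libraries held between 15382583 and 17174721 counts in genes. Summed CPM (counts-per-million, scaled by TMM) of 7 mature enterocyte markers had a median of 60284 on galactose and 57835 on glucose, while 5 hepatocyte markers had medians of 6.42 and 7.14. The library GAL42 replicate 12, from a mouse labelled female, held 225 counts of 4 Y-linked genes and 4 of Xist. In the other 22 libraries the same Y-linked genes summed to at most 1 count, and Xist had at least 778 counts. No GST gene passed the test without GAL42 replicate 12. Leaving out GAL42 replicate 7 changed the number of genes passing the test from 0 of 13405 to 219 of 13338, with no GST gene among them. Cages and litters are not given in the labels. The p-values treat each mouse as independent, and whether cage or litter went with diet cannot be told.

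The 250 bases before the RefSeq start site (build GRCm38.p6, read 5′ to 3′ on the gene's strand) are shown for 4 genes. Gsta3, Gstm1 and Gsta1 are those with the lowest, the second lowest and the highest fitted diet difference, and Gstm3 is the member with the highest level per kilobase. Capitals mark a match to TGACNNNGC, the core of the antioxidant response element, searched on both strands. The windows are chr1:21240335-21240584 on the plus strand (Gsta3), chr3:108017974-108018223 on the minus strand (the first of the Gstm1 starts in the table), chr3:107969175-107969424 on the minus strand (Gstm3) and chr9:78230419-78230668 on the plus strand (Gsta1).
Gsta3: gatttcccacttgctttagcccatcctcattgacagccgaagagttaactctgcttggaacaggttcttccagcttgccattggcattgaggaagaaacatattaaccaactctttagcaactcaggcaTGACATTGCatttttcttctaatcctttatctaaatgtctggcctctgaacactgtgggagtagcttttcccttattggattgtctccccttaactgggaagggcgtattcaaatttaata
Gstm1: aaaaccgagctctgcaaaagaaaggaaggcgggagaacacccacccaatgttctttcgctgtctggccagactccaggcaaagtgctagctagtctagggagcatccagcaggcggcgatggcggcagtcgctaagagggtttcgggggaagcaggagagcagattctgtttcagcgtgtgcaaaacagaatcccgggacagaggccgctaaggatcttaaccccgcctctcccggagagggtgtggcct
Gstm3: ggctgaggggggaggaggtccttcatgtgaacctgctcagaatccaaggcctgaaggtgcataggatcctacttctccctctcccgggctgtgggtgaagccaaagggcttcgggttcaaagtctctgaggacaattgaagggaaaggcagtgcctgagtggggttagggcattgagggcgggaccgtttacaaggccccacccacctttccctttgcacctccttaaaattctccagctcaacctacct
Gsta1: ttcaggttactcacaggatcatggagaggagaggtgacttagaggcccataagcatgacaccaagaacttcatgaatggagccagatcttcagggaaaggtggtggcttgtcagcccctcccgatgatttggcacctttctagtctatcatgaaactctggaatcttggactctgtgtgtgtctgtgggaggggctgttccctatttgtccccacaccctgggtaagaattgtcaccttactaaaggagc

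RefSeq promoters were found for 9 of the 10 members, and Gsta4 was not among them. Over windows of 250 bases before the start and 50 after, TGACNNNGC was found in 1 member, Gsta3, where TGACATTGC begins 121 bases before the start. Of all 32851 promoters in the table, 12.4% held it. GCGTG, the core of the xenobiotic response element, was found in 4 members, Gsta1, Gsta2, Gstm1 and Gstp1, against 32.4% of all promoters. GTTAAT, part of the HNF1 binding motif, was found in Gsta3 alone among the members, against 7.1% of all promoters. These are matches of letters and were not tested for binding. Forms of these elements with other letters, and sites outside these windows, were not searched, so a member without a match may still hold such an element.

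The diets were first compared gene by gene. None of the 10 GST transcripts passed edgeR's quasi-likelihood test after Benjamini-Hochberg adjustment over 13405 genes, where 0% of all genes passed. Means of Gsta1 and Gsta4 were higher on galactose, means of Gsta3 and of the 4 mu genes were lower, and Gsta2, Gstp1 and Gstt1 had small positive differences. At an unadjusted p under 0.05, 2 members were higher on galactose (Gsta1 and Gsta4) and 3 were lower (Gsta3, Gstm1 and Gstm2). The same threshold was met by 8.63% of all tested genes in the higher direction and by 5.72% in the lower direction. The 2 diets overlapped in CPM for every member, and 0 of the 13405 genes tested had diets that did not overlap. The log2 difference (galactose minus glucose) was positive for 5 members and negative for 5, against 49.5% and 50.5% of all genes tested. Its median was -0.01 over the 10 members and -0.00174 over all genes. The number of positive members was 3 with the length slope of each library (how its CPM depend on transcript length) as a covariate and 4 with surrogate variables. Some alternative analyses called genes elsewhere: DESeq2 called 0.642% of all genes, limma-voom with quality weights 1.25%, a fit with surrogate variables 0.0373%, and edgeR without GAL42 replicate 7 1.64%. In each of these 0 of the 10 members passed, but DESeq2 gave no adjusted p for Gsta2 and Gsta3.

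**Figure D1:**
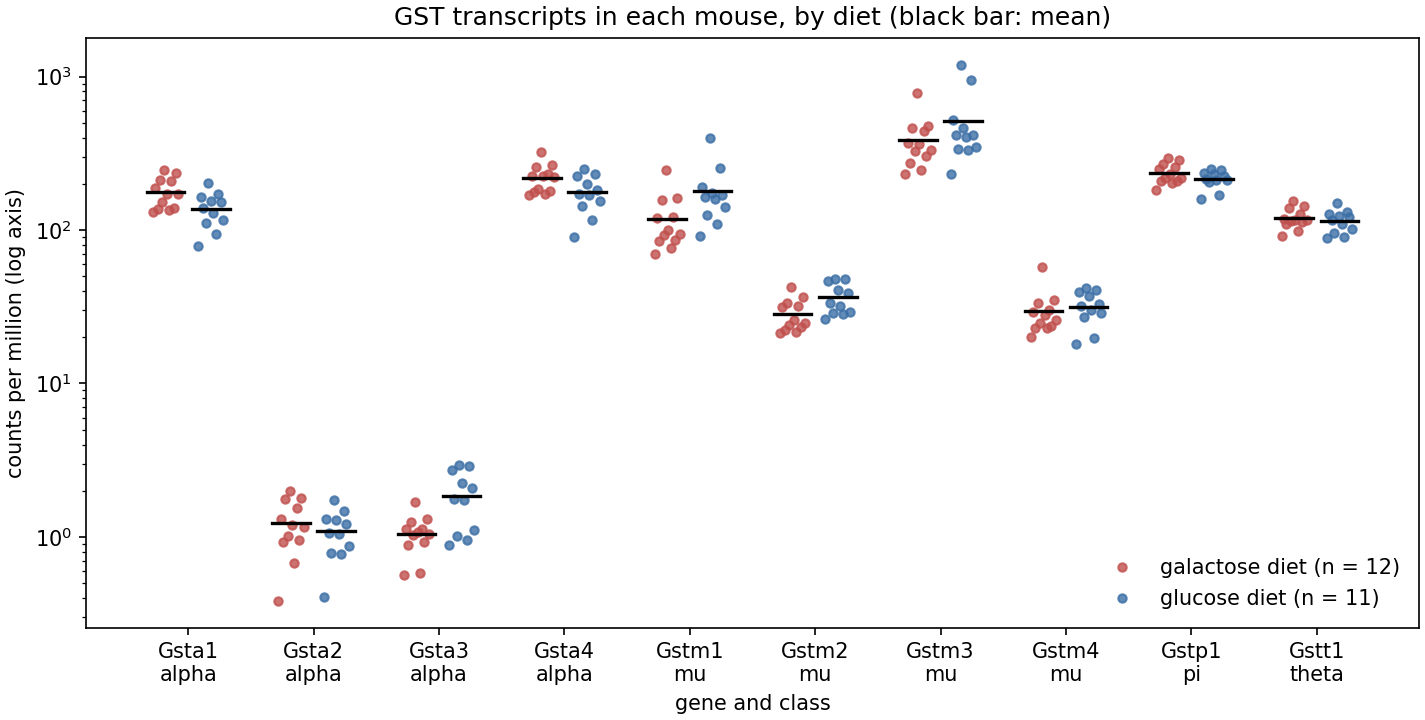
Each point is 1 mouse and gives the CPM of a GST transcript on a log axis, with galactose mice in red (n = 12), glucose mice in blue (n = 11) and the mean as a black bar. Red and blue points overlap for all 10 genes, and Gsta2 and Gsta3 lie near 1 CPM while the other 8 genes lie between 18.1 and 1198 CPM.

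In the alpha class, Gsta1 and Gsta4 were both abundant and both had higher means on galactose. Gsta4 is known for conjugating 4-hydroxynonenal, a product of lipid peroxidation. Its CPM had a lowest, median and highest value of 169, 223 and 321 on galactose, and of 90.2, 172 and 248 on glucose. Of the 12 galactose mice, 11 were above the glucose median. The log2 difference was 0.32 ± 0.14 (SE, unadjusted p = 0.0275, edgeR adjusted p = 0.287). Gsta1, an alpha enzyme that also reduces hydroperoxides, had a lowest, median and highest CPM of 131, 173 and 245 on galactose, and of 78.6, 139 and 201 on glucose. Its log2 difference was 0.37 ± 0.14 (SE, unadjusted p = 0.0114, edgeR adjusted p = 0.220), and 9 of 12 galactose mice were above the glucose median. For both genes the lowest value of all 23 mice was that of GLU42 replicate 10. Without that library the differences were 0.31 for Gsta1 and 0.25 for Gsta4.

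Gsta3, the mouse alpha enzyme known for detoxifying the epoxide of aflatoxin, was scarce, with 9 to 47 reads per library. On galactose its lowest, median and highest CPM were 0.560, 1.05 and 1.70, and on glucose they were 0.881, 1.76 and 2.92. All 12 galactose mice were below the glucose median, but 3 of 11 glucose mice were below the galactose median. Its log2 difference of -0.81 ± 0.22 (SE) was the largest of the family in size and had the smallest p (unadjusted p = 0.00128, edgeR adjusted p = 0.138). By unadjusted p it ranked 118 among 13405 genes. Gsta2 was as scarce, with 6 to 31 reads per library. Its CPM ran from 0.383 to 2.0 on galactose and from 0.406 to 1.74 on glucose, with medians of 1.18 and 1.06. The diets covered the same range (log2 difference 0.17 ± 0.23, SE, edgeR adjusted p = 0.774).

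All 4 mu genes had lower means on galactose. Gstm1, a mu enzyme with many electrophilic substrates, showed the widest span of the family, 5.72-fold between the highest and the lowest of the 23 mice. Its lowest, median and highest CPM were 69.8, 97.2 and 247 on galactose, and 91.4, 164 and 399 on glucose. Of the galactose mice, 11 of 12 were below the glucose median, while GAL42 replicate 3 held 247 CPM, more than 9 of the 11 glucose mice. The log2 difference was -0.61 ± 0.22 (SE, unadjusted p = 0.00862, edgeR adjusted p = 0.205). It was -0.77 without GAL42 replicate 3 and -0.43 without GLU42 replicate 3, which held the highest value of all. Gstm2, another mu enzyme at a lower level, had a lowest, median and highest CPM of 21.3, 25.4 and 42.4 on galactose, and of 26.5, 33.3 and 48.3 on glucose. None of the 11 glucose mice were below its galactose median, and 3 galactose mice were above its glucose median. Its log2 difference was -0.36 ± 0.13 (SE, unadjusted p = 0.00778, edgeR adjusted p = 0.205).

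Gstm3 was the most abundant member, with a lowest, median and highest CPM of 232, 349 and 779 on galactose, and of 232, 414 and 1198 on glucose. Its mean was 384 ± 148 (SD, n = 12) against 510 ± 294 (SD, n = 11), a spread that GLU42 replicate 3 (1198) and GLU42 replicate 7 (947) widened. The other 9 glucose mice lay between 232 and 522 CPM, and all galactose mice but GAL42 replicate 3 lay between 232 and 477. The log2 difference was -0.41 ± 0.23 (SE, unadjusted p = 0.0870, edgeR adjusted p = 0.419). It was -0.20 without GLU42 replicate 3 and was -0.55 without GAL42 replicate 3. Gstm4 ran from 20.2 to 57 CPM on galactose and from 18.1 to 41.8 on glucose, with medians of 27.1 and 32.2. The highest mouse, GAL42 replicate 3, was on galactose, and the log2 difference was -0.10 ± 0.15 (SE, edgeR adjusted p = 0.796). It was -0.23 without GAL42 replicate 3 and -0.06 without GLU42 replicate 3.

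The pi and theta members varied least between mice. Gstp1, the pi enzyme, had a lowest, median and highest CPM of 183, 225 and 295 on galactose, and of 159, 216 and 248 on glucose. Its log2 difference was 0.14 ± 0.08 (SE, edgeR adjusted p = 0.450), and the highest-to-lowest span over 23 mice was 1.86-fold. Gstt1, the theta enzyme, had a lowest, median and highest CPM of 91.9, 116 and 154 on galactose, and of 88.3, 116 and 150 on glucose. These ranges nearly coincide (log2 difference 0.07 ± 0.09, SE, edgeR adjusted p = 0.738, span 1.75-fold).

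**Figure D2:**
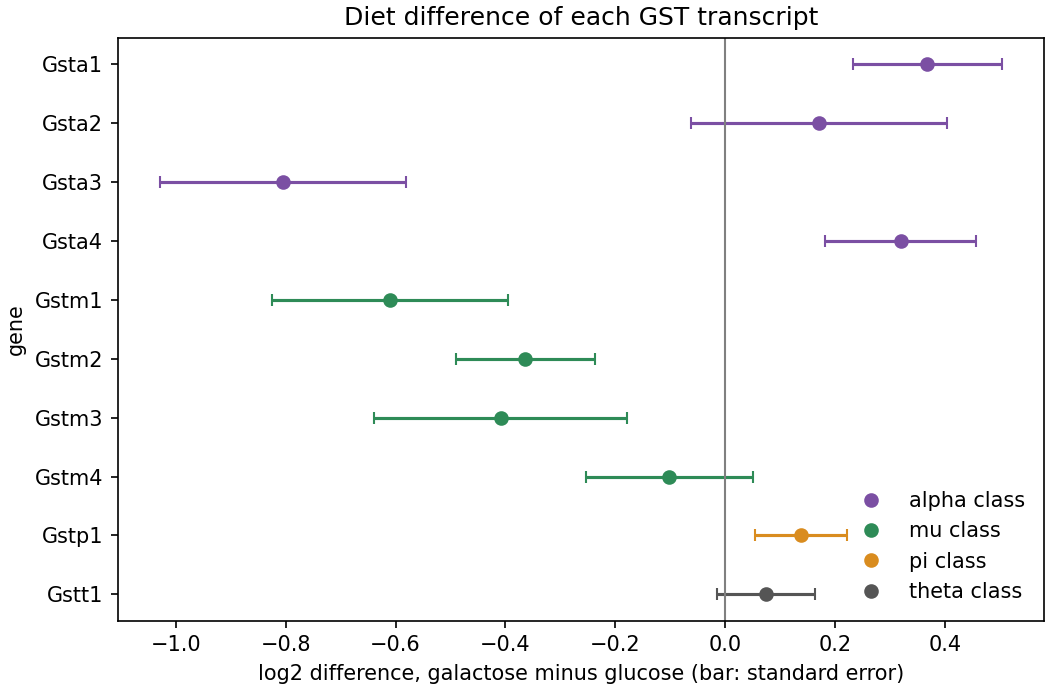
Points give the fitted log2 difference (galactose minus glucose) of each GST transcript and bars its standard error, coloured by class. Gsta1 (0.37) and Gsta4 (0.32) lie to the right of 0 and Gsta3 (-0.81) and all 4 mu genes to the left, and no gene passed the adjusted threshold.

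Summed by class, the CPM of the 4 alpha genes was 399 ± 84.2 (SD, n = 12) on galactose and 316 ± 83.8 (SD, n = 11) on glucose. The 4 mu genes summed to 560 ± 207 on galactose and 758 ± 387 on glucose (SD). The sums were carried by Gsta1 and Gsta4 in the one class and by Gstm1 and Gstm3 in the other, so Gsta3 lay against its class. In each mouse the mu sum was divided by the alpha sum. The ratio had a median of 1.26 on galactose (1.02 to 2.54) and of 2.18 on glucose (1.22 to 4.59). These ranges overlap, and no test was run on sums of named members. All 10 genes together summed to 1315 ± 295 CPM on galactose and 1402 ± 444 on glucose (SD). The mean total thus differed between diets by less than its SD, and so did the mean alpha sum and the mean mu sum.

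Several marker lists of other cell types also had different sums on the diets, and their part in the GST differences was not tested. In scrapings, fewer cells of a type and less RNA per cell cannot be told apart. Mature enterocyte markers had a higher mean on galactose for 6 of 7 genes. Villus tip markers were lower for 6 of 6, with summed CPM of 1987 to 3295 on galactose and 1931 to 3749 on glucose. Crypt stem markers were lower for 6 of 6 (67.0 to 210 against 93.9 to 266), and so were Paneth markers (389 to 1769 against 363 to 2183). T cell markers were higher for 6 of 6, with 85.6 to 226 on galactose and 28.9 to 172 on glucose. B and plasma cell markers had higher means on galactose for 5 of 5 (49.3 to 233 CPM against 50.4 to 150 on glucose). The median of their sum was lower on galactose, however (92.8 against 97.3 CPM), and Mzb1 had a median count of at most 1. Tuft cell markers were lower for 5 of 5 (31.0 to 48.3 against 33 to 54.6), as were fibroblast markers (47.3 to 143 against 57.6 to 156) and smooth muscle markers (33.6 to 98.4 against 32.3 to 141). No gene of these 9 lists was at 0 in every library. Hepatocyte markers summed to at most 9.73 CPM in any mouse. Pancreatic acinar markers reached 337 CPM in 1 galactose library, against at most 6.71 in any glucose library, with Amy2a5 at 0 throughout.

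Part of the counted sequence is not unique to a member. In the longest protein-coding transcripts of GENCODE M21 (GRCm38, another build than the counts), 89.7% of the 50-base words of Gsta1 occur in a transcript of another gene, and 82.9% of all its words occur in Gm3776. The shares were 64.2% for Gsta2, 62.3% for Gstp1 (Gstp2), 28.8% for Gstm3, 23.1% for Gstm1 and 9.36% for Gstm2. For Gsta3, Gsta4, Gstm4 and Gstt1 they were 0%. With 100-base words the shares were 81.8% for Gsta1, 35% for Gsta2, 52.8% for Gstp1, 13.8% for Gstm3, 7.73% for Gstm1 and 0.622% for Gstm2. For the nearest copies, the first 90 coding bases are printed for each pair, with every base that differs from the partner in capitals. They were chosen because no other stretch of 90 coding bases held more differences, so the rest of each pair is at least as alike.
Gsta1: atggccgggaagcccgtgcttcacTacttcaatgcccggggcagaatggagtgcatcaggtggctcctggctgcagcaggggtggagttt
Gm3776: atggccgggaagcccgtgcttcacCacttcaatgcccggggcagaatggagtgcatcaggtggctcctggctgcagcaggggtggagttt
Gstp1: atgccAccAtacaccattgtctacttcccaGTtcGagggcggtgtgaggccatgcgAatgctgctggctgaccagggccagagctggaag
Gstp2: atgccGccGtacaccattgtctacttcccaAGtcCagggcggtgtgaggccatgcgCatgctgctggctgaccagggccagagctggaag

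Over the whole open reading frame, Gsta1 and Gm3776 differ at 2 of 672 bases (99.7% identity), and Gstp1 and Gstp2 at 12 of 633 (98.1%). Counts of these pairs, and of Gsta2, are therefore uncertain, because reads that match both genes cannot be assigned to one. Reads listed as aligned to several places made up 8.64% of all reads. Whether such reads were also counted in genes is not stated in any source used here. Gm3776, chosen after the shared words were seen, had 28.1 ± 8.27 CPM on galactose and 25.9 ± 6.81 on glucose (SD). Its log2 difference was 0.12 ± 0.15 (SE, edgeR adjusted p = 0.752). How far shared reads enter the Gsta1 difference was not tested.

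Relative to transcript length, the members spanned a wide range. Mean CPM per kilobase over the 23 mice was 339 for Gstm3, 275 for Gstp1, 203 for Gsta4, 181 for Gsta1, 114 for Gstm1 and 106 for Gstt1. It was 30.2 for Gstm2, 17.9 for Gstm4, 1.33 for Gsta2 and 0.982 for Gsta3. The order rests on the transcript chosen for each gene and, for Gstp1 and Gsta1, on how reads shared with the near copies were counted.

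**Figure D3:**
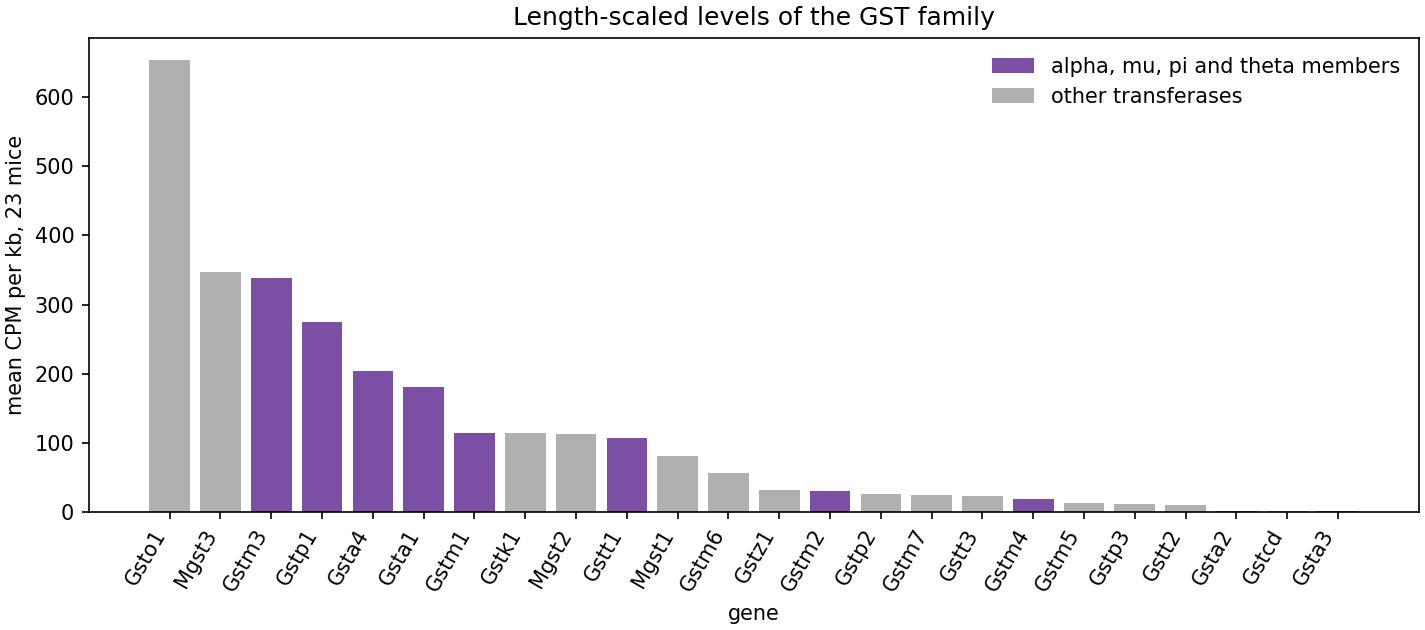
Bars give the mean CPM per kilobase of transcript over 23 mice for the GST genes with a length and a test, members in purple and the others in grey. Gsto1 (654) and Mgst3 (347) stand above Gstm3 (339), the highest member, and Gsta3 (0.982) is the lowest.

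Of 20 further GST genes, 17 had a row in the counts and 15 were tested. None passed the test in either direction, 10 had a positive and 5 a negative log2 difference, and the median was 0.05 (-0.05 with the length slope and -0.09 with surrogate variables). Among the omega, zeta and kappa enzymes, Gsto1 was the most abundant of all GST genes, with 787 ± 81.4 CPM on galactose and 757 ± 48.6 on glucose (SD). Its log2 difference was 0.06, and those of Gstz1 and Gstk1 were 0.06 and 0.02. The microsomal enzyme Mgst3 had 392 ± 54.1 and 369 ± 42.9 CPM (SD), a log2 difference of 0.09, while Mgst1 and Mgst2 had -0.11 and -0.18. For the other mu genes, log2 differences were 0.16 for Gstm5, -0.06 for Gstm6 and 0.01 for Gstm7. Gstp2 and Gstp3 had 0.08 and 0.21, and Gstt3 had 0.05. Gstt2, a theta enzyme, had 21.5 ± 2.77 CPM on galactose and 19.0 ± 2.05 on glucose (SD), a log2 difference of 0.18 ± 0.07 (SE, unadjusted p = 0.0217, edgeR adjusted p = 0.260). Gstcd had -0.06. Hpgds, the sigma-class prostaglandin D synthase, had 2.30 ± 0.59 CPM on galactose and 2.83 ± 0.33 on glucose (SD), a log2 difference of -0.30 ± 0.14 (SE, unadjusted p = 0.0386, edgeR adjusted p = 0.324). Gstt4 and Gsto2 had at most 3 and 15 reads in any library and were not tested.

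Genes that make and recycle glutathione numbered 13 among those tested, and none passed (0 in either direction, 4 positive, 9 negative, median -0.09). The subunits of glutamate-cysteine ligase, the rate-limiting enzyme of glutathione synthesis, were the first by unadjusted p. Gclm had 127 ± 12.1 CPM on galactose and 145 ± 19.7 on glucose (SD), with a log2 difference of -0.19 ± 0.07 (SE, unadjusted p = 0.0100). Gclc had 28.7 ± 3.47 against 33.3 ± 5.71 CPM (SD), a difference of -0.22 ± 0.08 (SE, unadjusted p = 0.0147). Gsr, which reduces oxidised glutathione, had -0.12, and Gss, the synthetase of the final step, had 0.10.

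Of 13 glutathione peroxidase, glutaredoxin and related genes 0 passed, with 9 positive, 4 negative and a median of 0.05. That median was -0.02 with the length slope of each library as a covariate and -0.0069 with surrogate variables. Hagh, which completes the glyoxalase route, had 112 ± 13.4 CPM on galactose and 96.2 ± 8.28 on glucose (SD), a log2 difference of 0.22 ± 0.06 (SE, unadjusted p = 0.00159, edgeR adjusted p = 0.139). Prdx6 had 0.20 ± 0.07, Gpx4, which reduces lipid hydroperoxides, had 0.21 ± 0.10, and Glrx5 had 0.17 ± 0.09 (SE). Of 10 genes of conjugate efflux and mercapturate formation 0 passed, with 4 positive, 6 negative and a median of -0.03 (0.02 with surrogate variables). Abcc2, the apical exporter of glutathione conjugates, had 384 ± 76.6 CPM on galactose and 452 ± 71.3 on glucose (SD), a log2 difference of -0.24 ± 0.10 (SE, unadjusted p = 0.0288). The other genes of smallest p in that list were Abcc4 (-0.36), Abcc5 (-0.23) and Nat8 (0.16).

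Among 14 regulators known for GST genes 0 passed, with 6 positive, 8 negative and a median of -0.02 (0.08 with the length slope and 0.03 with surrogate variables). Nfe2l2, which encodes NRF2, had 351 ± 36.2 CPM on galactose and 323 ± 27.3 on glucose (SD), a log2 difference of 0.12 ± 0.06 (SE). Keap1, its inhibitor, had 0.09, its partner Mafg had -0.08, and the hepatic and intestinal factor Hnf4a had -0.14 ± 0.06 (SE, unadjusted p = 0.0332). Of 15 NRF2 targets outside the glutathione system 0 passed, with 5 positive, 10 negative and a median of -0.04. Me1, malic enzyme, had 12.8 ± 4.42 CPM on galactose and 21.0 ± 6.57 on glucose (SD), a difference of -0.71 ± 0.17 (SE, unadjusted p = 0.000265, edgeR adjusted p = 0.135). Taldo1 had 0.15, Ugdh had -0.16 and Txn1 had 0.14. The 15 targets had differences of both signs, as all genes tested did, and activity of NRF2 was not tested.

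Co-variation between mice was examined next, with each diet's mean subtracted so that diet does not enter. All 45 pairs of members had a positive Pearson r over the 23 mice, from 0.02 to 0.94, with a median of 0.43. After Benjamini-Hochberg adjustment over the 45 pairs, 19 passed a two-sided permutation test with mice permuted within diet. Within the mu class 6 of 6 pairs passed, with r from 0.61 to 0.86. Between alpha and mu genes 8 of 16 pairs passed (0.24 to 0.58), and within the alpha class 1 of 6. Of pairs with Gstt1, 3 of 4 mu genes passed and 0 of 4 alpha genes. Of pairs with Gstp1, 1 of 4 mu genes passed (Gstm2) and 0 of 4 alpha genes. Over all 89840310 pairs of tested genes, 49.6% had a positive r and 4.19% had an r of at least 0.49, the value of the weakest member pair that passed. Mice share a library protocol, and genes of one library share its depth and tissue make-up, so these shares are a description.

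**Figure D4:**
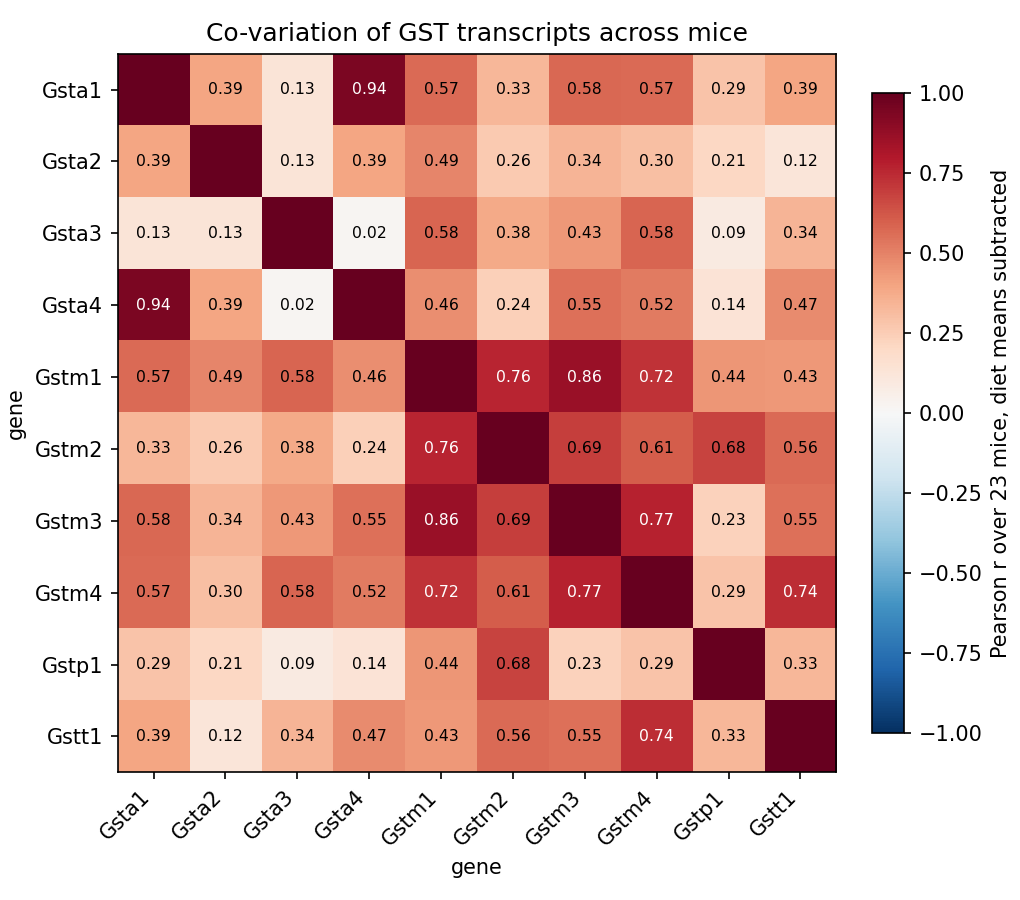
Each cell gives Pearson r between 2 GST transcripts over 23 mice, on log2 CPM with diet means subtracted, on a scale from -1 (blue) to 1 (red). The mu block holds values of 0.61 to 0.86, Gsta1 with Gsta4 reaches 0.94, and Gsta3 with Gsta4 is at 0.02.

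Gsta1 and Gsta4 followed each other most closely. Over 23 mice r was 0.94 (permutation p = 1e-05, adjusted p = 0.000225). Spearman's rho, taken on diet-centred ranks, was 0.93 (permutation p = 1e-05). This p is the smallest that 100000 resamples can give. Within the diets r was 0.92 on galactose and 0.97 on glucose, and it was 0.91 without the 2 mice farthest from the Gsta1 median. In GAL42 replicate 8 both were highest, with 245 CPM of Gsta1 and 321 of Gsta4, and in GLU42 replicate 10 both were lowest. The other alpha pairs did not pass: Gsta3 had r of 0.13 with Gsta1, 0.13 with Gsta2 and 0.02 with Gsta4, at the few reads that Gsta3 and Gsta2 had.

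Gstm1 and Gstm3 had r of 0.86 and rho of 0.71 (permutation p = 1e-05 for r and 0.00047 for rho, adjusted p = 0.000225 and 0.00495). Within the diets r was 0.79 and 0.93, and without the 2 mice farthest from the Gstm1 median it was 0.78. The mice at the top were few. GAL42 replicate 3 had the highest Gstm1, Gstm2, Gstm3, Gstm4 and Gsta3 of its diet, with 779 CPM of Gstm3. GLU42 replicate 3 had the highest Gstm1, Gstm2, Gstm3 and Gstm4 of its diet. Gstm3 with Gstm4 had r of 0.77 (rho 0.73, permutation p = 2e-05 and 0.00021, adjusted p = 0.0003 and 0.00315). Gstm1 with Gstm2 had r of 0.76 (rho 0.70, adjusted permutation p = 0.00072 and 0.00495). Without GAL42 replicate 3 and GLU42 replicate 3, 16 pairs passed in place of 19. Gstm2 with Gstm4, Gsta3 with Gstm1 and Gsta3 with Gstm4 were those lost (adjusted permutation p = 0.135 for each).

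Gsta3 passed with 2 mu genes and with no alpha gene. Its r was 0.58 with Gstm1 (rho 0.65, adjusted permutation p = 0.0188 and 0.00737) and 0.58 with Gstm4 (rho 0.57, adjusted permutation p = 0.0194 and 0.0252). Whether these differ from its correlations with Gsta1 and Gsta4 was not tested. Gstm4 with Gstt1 was the closest pair between classes, with r of 0.74 and rho of 0.74 (adjusted permutation p = 0.000675 and 0.00315), and 0.60 and 0.88 within the diets. Gstm2 with Gstp1 had r of 0.68 and rho of 0.67 (adjusted permutation p = 0.00332 and 0.00585). Gsta1 with Gstp1 had r of 0.67 on galactose and -0.06 on glucose, a difference between diets that was not tested. In 40 of 45 pairs r had the same sign on both diets.

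**Figure D5:**
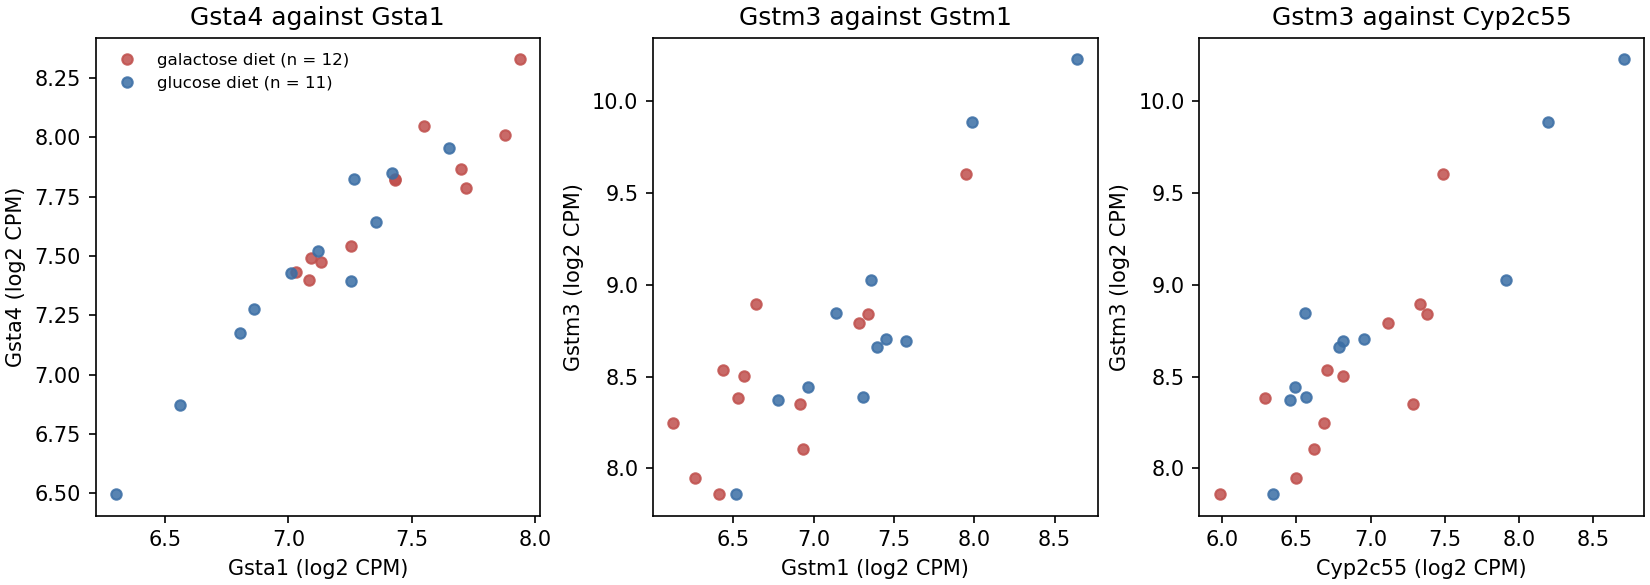
Each point is 1 mouse on log2 CPM axes, red for galactose (n = 12) and blue for glucose (n = 11): Gsta4 against Gsta1, Gstm3 against Gstm1 and Gstm3 against the cytochrome P450 gene Cyp2c55. Points rise together in each panel (diet-centred r of 0.94, 0.86 and 0.89), and 2 blue points and 1 red point stand at the top of the middle panel.

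The same 10 genes were set against 19 measures of each library (marker scores, gut position, length slope and reads outside genes), which made 190 relations. By Pearson r only Gstt1 with the enteroendocrine score passed (r = 0.80, rho = 0.78, permutation p = 1e-05 and 2e-05, adjusted p = 0.0019 and 0.0038). It was 0.81 within each diet and 0.82 without the 2 farthest mice. Gstp1 with the length slope had r of -0.67 (rho -0.74, adjusted permutation p = 0.0589 and 0.0199). The slope was -0.03 ± 0.06 on galactose and 0.03 ± 0.05 on glucose (SD), and with it as a covariate the log2 difference of Gstp1 was -0.03. Gsta4 had r of -0.64 with the goblet score (adjusted permutation p = 0.0589), 0.58 with the T cell score (adjusted permutation p = 0.209) and -0.63 with the score of distal over proximal gut markers (adjusted permutation p = 0.161). The last was -0.89 among glucose mice and -0.07 among galactose mice, and the difference between diets was not tested. Without the 2 mice farthest from the Gsta4 median it was -0.48. GLU42 replicate 10 and GLU42 replicate 11 had the highest such scores of the glucose mice (1.03 and 0.73) and the lowest Gsta4 of all mice. Gsta1 had r of -0.46 with this score (adjusted permutation p = 0.389), -0.78 among glucose mice and 0.07 among galactose mice. With gut position as a covariate Gsta4 had a log2 difference of 0.28 and Gsta1 of 0.33.

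For the member of each class with the highest level per kilobase, the 5 genes outside the GST lists with the highest diet-centred r among 13405 were taken as a description, with no p. Gstm3 was closest to 4931406C07Rik (0.89), to the cytochrome P450 genes Cyp2c55 (0.89), Cyp2b10 (0.85) and Cyp2c66 (0.83), which oxidise lipids and xenobiotics, and to Entpd5 (0.83). Within the diets these r were 0.72 to 0.81 on galactose and 0.88 to 0.95 on glucose. GLU42 replicate 3 was the highest mouse and GLU42 replicate 7 the second highest for Gstm3 and for each of these 5 genes. How far the r of Gstm3 rest on those mice was not tested. Like Gstm3, Cyp2c55 was wide on glucose, with 121 ± 38 CPM on galactose and 159 ± 110 on glucose (SD), and Cyp2b10 had 467 ± 169 and 565 ± 301. Neither passed the test between diets (edgeR adjusted p = 0.490 and 0.617). Gsta4 was closest to Acsl6 (0.76), Reg1 (0.75), Il18 (0.75), Akr1c13 (0.75) and Ahcyl1 (0.74). Within the diets these r were 0.49 to 0.72 on galactose and 0.78 to 0.87 on glucose. GLU42 replicate 10, the lowest mouse for Gsta4, was also the lowest for Acsl6, Reg1, Akr1c13 and Ahcyl1. How far these r rest on that mouse was not tested. Akr1c13 is an aldo-keto reductase and Il18 an epithelial cytokine gene. Gstp1 was closest to Cebpb (0.82), a transcription factor gene, and to Trir (0.79), Idh3g (0.77), Hdhd3 (0.76) and Gnb2 (0.75). Gstt1 was closest to Pex11g (0.87), to the glycolytic genes Gapdh (0.86) and Pgk1 (0.84), and to Yif1a (0.84) and Ces1g (0.83). Gapdh had 3438 ± 416 CPM on galactose and 2803 ± 341 on glucose (SD, edgeR adjusted p = 0.138), and Gstt1 had 120 ± 18 and 114 ± 19.2.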

How the data were processed

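Proximal small intestine scrapings of 23 mice were measured by RNA-seq, 1 library per mouse. Per the submitters' processing notes the tools were STAR and HTSeq and the build GRCm39; no source used here gives their versions, the annotation release, the strand setting or filters. The authors deposited raw read counts per gene for each library. The 5 rows that name no gene held 13.5% of reads and were left out. Symbols came from the supplied name table (52083 of 55416 rows).

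Counts were filtered with filterByExpr (13405 genes), scaled by TMM and tested with edgeR 4.0.16 (quasi-likelihood, R 4.3.3) with diet as the only term. P-values were adjusted by Benjamini-Hochberg over all genes tested, with a threshold of 0.05. The standard error is the log2 difference divided by the root of F. Correlations used log2 CPM with a prior count of 2, diet means subtracted, and 100000 permutations of mice within diet. For rho the diet-centred values were ranked over all mice, and diet means of the ranks were subtracted again. The procedures were tested on simulated data. Within-diet pairs of libraries differed by at least 12.9 in chi-square per degree of freedom, so none of these pairs was a copy. Pairs between the diets were not checked. Replicate numbers follow the order of deposit.

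The members and the gene lists were chosen with earlier results of these data known. All members and every tested gene of the other GSTs are named; of each other list, the 4 genes of smallest unadjusted p. Names from the near-copy search were chosen after its result. Alternatives were other scalings, filters and covariates, DESeq2 1.42.0, limma-voom (limma 3.58.1), 6 surrogate variables (sva 3.50.0) and each library left out. Promoters are RefSeq's (GRCm38.p6), and transcripts are GENCODE M21's, neither of the build of the counts, so no coordinates of the counts are given. Protein sequences were not used here.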

Additional observations from a re-analysis of the deposited data

How the results depend on the processing

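No GST member passed under any of 11 alternative settings or with any of the 23 libraries left out (edgeR, limma or DESeq2). The smallest adjusted p was 0.0948 over the settings and 0.0589 without GAL42 replicate 7, both for Gsta3. DESeq2 gave no adjusted p for Gsta2 and Gsta3. Gsta3 and the 4 mu members were lower and Gsta1, Gsta2 and Gsta4 higher on galactose in every setting. Gstp1 turned to -0.0325 with the length slope as a covariate, and Gstt1 to -0.0145 with it and to -0.0658 with surrogate variables. With surrogate variables Gsta1 was 0.23, Gsta4 0.19 and Gstm3 -0.67. Gsta3 was -0.55 with surrogate variables (edgeR adjusted p = 0.649) and -0.63 with the length slope as a covariate (edgeR adjusted p = 0.738). With 1 library left out, log2 differences were 0.31 to 0.44 for Gsta1, 0.08 to 0.26 for Gsta2, -0.89 to -0.72 for Gsta3, 0.25 to 0.38 for Gsta4, -0.77 to -0.43 for Gstm1, -0.44 to -0.32 for Gstm2, -0.55 to -0.20 for Gstm3, -0.23 to -0.06 for Gstm4, 0.10 to 0.17 for Gstp1 and 0.04 to 0.12 for Gstt1. Over all genes, 0 passed by edgeR (1924 at an unadjusted p under 0.05), 86 by DESeq2 (63 higher, 23 lower), 167 by limma-voom with quality weights (142 higher, 25 lower), 5 with surrogate variables (3 higher, 2 lower) and 0 to 219 with 1 library left out, the 219 without GAL42 replicate 7 (175 higher, 44 lower). Of the genes in the 6 pathway lists 1, Me1 (an NRF2 target outside the glutathione system), passed by DESeq2 and with quality weights, and 0 to 1 with 1 library left out (Me1, without GAL42 replicate 7). List medians changed sign for other GST genes (length slope -0.05, surrogate variables -0.09), peroxidases and glutaredoxins (-0.02 and -0.0069), regulators (0.08 and 0.03) and efflux (0.02, surrogate variables only). Passing pairs numbered 16 to 21 over the alternatives. Gsta2 with Gstm1 (adjusted permutation p = 0.0495) was lost with a prior count of 0.5 (0.0508), with library totals (0.0572) and without GAL42 replicate 12 (0.0595), and r of Gsta3 with Gsta4 was 0.0337 without GAL42 replicate 12, -0.0172 with library totals and -0.0525 without GAL42 replicate 3 and GLU42 replicate 3, chosen after seeing the data. The causes were not tested. No paired analysis was possible because replicate numbers were given in accession order, which links no mouse of one diet to a mouse of the other. Gsta2 and Gsta3 had at most 47 reads in a library, which limits their precision.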
